A study of Saccharomyces cerevisiae with 10 samples.

Results

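The genes by which budding yeast takes up ready-made pyrimidines and turns them into nucleotides were examined in a strain without EDC3 and in an isogenic wild-type strain. The members were FUR4, FUI1, FCY2, FUR1, FCY1, URK1, URH1 and CDD1, chosen by function. Each of the 8 genes had a single probe set, a group of short oligonucleotides, that the platform annotation pairs with that gene alone. Such a probe set exists for 5656 genes in all. After the dimmest of the 9275 probe sets had been left out, 6492 were tested, and these include all 8.

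RNA levels were measured on Affymetrix Yeast Genome S98 arrays, with 1 array per sample. The edc3 deletion strain, labelled edc3D here as on the arrays, is named CFY25 in the sample labels and SYY14 in the design text. The wild-type strain (WT) is HFY114, and the design text calls the strains isogenic. Both were grown in YEPD, a rich medium of yeast extract, peptone and glucose, at 30 °C without treatment, and there were 5 arrays of each. The sources used here do not give the genotype of the strains apart from EDC3, including whether they can make their own uracil. The labels pair the arrays by experiment, with the letters A, B, C, E and G. Edc3 is a cytoplasmic protein that helps to remove the cap from mRNA, and the comparison asks which RNAs change in level without it.

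Pyrimidine nucleotides can be built from small precursors (de novo synthesis) or salvaged. In salvage, permeases of the plasma membrane bring in uracil, uridine or cytosine, and enzymes inside the cell convert these to uridine monophosphate. Uracil is the central base of the yeast route, because cytosine is deaminated to uracil and uridine can be split to uracil. The uracil permease of yeast is known to be controlled by its substrate both through its mRNA and through removal of the protein from the membrane. Several genes of de novo synthesis are activated by the transcription factor Ppr1 when precursors accumulate, and salvage is the alternative supply of the same nucleotides.

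EDC3 (YEL015W) itself read 1.0, 1.8, 0.1, 2.3 and 1.7 on the edc3D arrays of experiments A, B, C, E and G, against 456.8 to 480.5 on the WT arrays, so the signals matched the labels. Mouse control probe sets, which have no yeast target, reached 4.8 on the edc3D arrays. The arrays of experiments E and G stood apart from those of A, B and C. Within a strain they were also nearly alike: over bright probe sets their log2 signals differed with a median absolute deviation of 0.056 and 0.061, against 0.141 to 0.325 for the other pairs of arrays of the same strain. If E and G come from a single RNA, n is 4 and not 5. The labels call the samples biological replicates.

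Without Edc3 no uptake or salvage gene changed in level by the test used here, while 2 enzymes of de novo synthesis fell. With limma over all tested probe sets, 0 of the 8 genes had an adjusted p under 0.05, where 0.077% of all tested probe sets did (5 of 6492). None had an unadjusted p under 0.05 in that fit, against 4.82% of all probe sets. With the experiment as a block, which compares the strains within each experiment, again 0 passed, against 0.447% of all probe sets. In the blocked fit FUI1 and URK1 had an unadjusted p under 0.05, against 23.1% of all probe sets. The exact permutation test, which cannot go below 0.00794 with 5 arrays against 5, gave p from 0.341 to 0.992 for the 8 genes. It does not use the pairing by experiment, so variation between experiments counts as error and it has little power here. The median log2 difference of the 8 genes was 0.008 and that of all tested probe sets was -0.004, with 4 genes higher and 4 lower in edc3D.

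**Figure D1:**
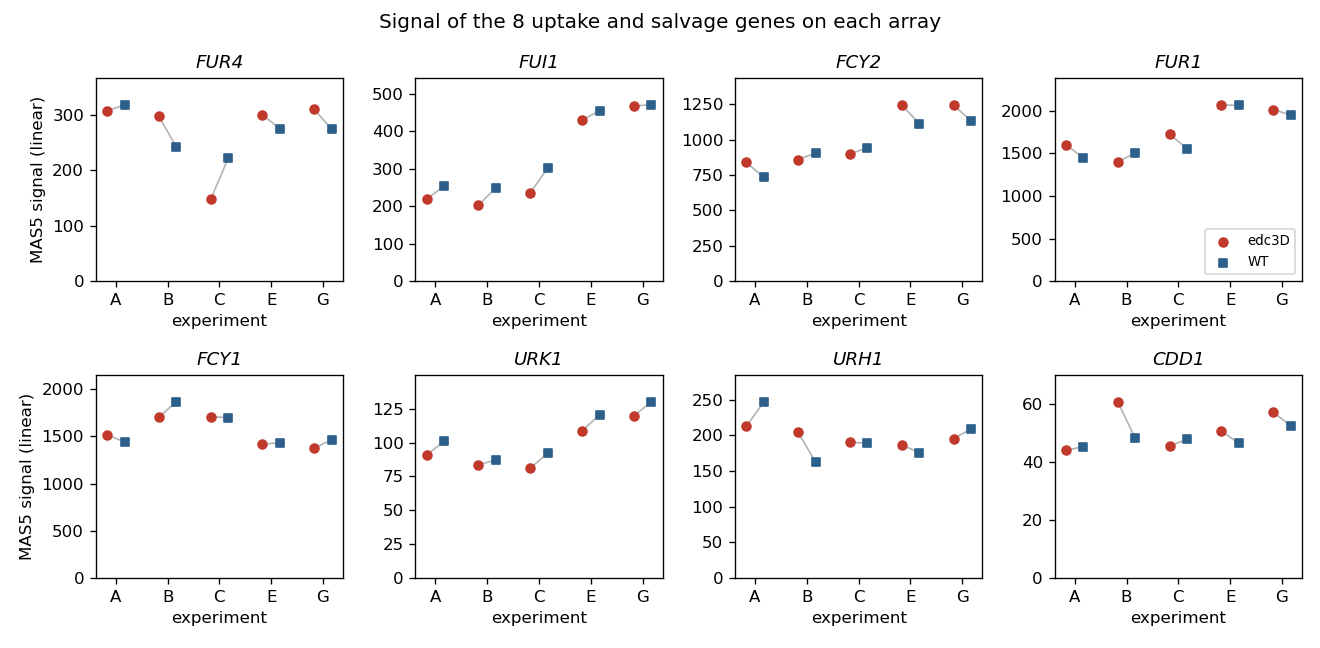
MAS5 signal (linear scale, starting at 0) of each of the 8 genes on every array, by experiment letter, with the edc3D array (red circle) left of the WT array (blue square) of the same experiment and a line joining them. FUI1, FCY2, FUR1 and URK1 were highest in experiments E and G in both strains, and the single low FUR4 value is the edc3D array of experiment C.

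The 3 permeases come first in the route. FUI1 (YBL042C), the uridine permease, read 218.9, 202.4, 235.2, 429.6 and 467.7 in edc3D (experiments A, B, C, E and G), against 253.3, 249.6, 302.5, 454.8 and 470.3 in WT. It was lower in edc3D in all 5 experiments, and the arrays of the strains overlapped, as the experiments differed far more than the strains. Over all tested probe sets, the arrays of the strains did not overlap in 1.2%, and among the 8 genes in 0. A lower signal in all 5 experiments was found for 2 of the 8 genes, FUI1 and URK1, and for 10.2% of all tested probe sets.

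The mean FUI1 signal was 311 ± 127 in edc3D and 346 ± 108 in WT (SD, n = 5 each), which is -0.19 ± 0.28 (SE) on the log2 scale, with a limma adjusted p of 0.999. With the block the error shrank to 0.064 and the adjusted p was 0.133 (unadjusted p = 0.016). The strain difference of FUI1 was not the same size throughout. It was -0.211, -0.302 and -0.363 in experiments A, B and C, and -0.082 and -0.008 in E and G. The edc3D arrays of A, B and C lay below all WT arrays of these experiments, as did those of 3.59% of all tested probe sets. Within A, B and C alone the log2 difference was -0.29, with a limma adjusted p of 0.999 without the block and 0.430 with it. Within E and G alone it was -0.045 (limma adjusted p = 0.604; 0.417 with the block). A direct test of whether the strain difference moved with this split gave a difference of 0.25 ± 0.10 (SE, E and G minus A, B and C). Its limma p was 0.0482 before adjustment, where 14% of all probe sets lay under 0.05, and 0.354 after it. Of all tested probe sets 0% passed this test after adjustment.

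FUR4 (YBR021W), the uracil permease, read 307.0, 297.2, 147.2, 300.0 and 309.7 in edc3D, against 318.0, 242.0, 221.6, 274.6 and 273.7 in WT. Apart from experiment C, the edc3D arrays lay between 297.2 and 309.7, a narrow range. The array of experiment C gave the lowest reading of the gene in the series, and WT was lowest in the same experiment. The mean was 272 ± 70.1 in edc3D and 266 ± 36.7 in WT (SD, n = 5 each), which is -0.008 ± 0.20 on the log2 scale (SE, limma adjusted p = 0.999). Without the edc3D array of experiment C the log2 difference was 0.20 (limma adjusted p = 0.889), and without experiment C in the blocked fit it was 0.14 (limma adjusted p = 0.271). The sign of the FUR4 difference thus turned without the edc3D array of experiment C. It also turned without the WT array of experiment A, E or G (0.059, 0.007 and 0.005). The gene passed the test in none of these fits, nor with all arrays.

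FCY2 (YER056C), the permease for cytosine and purine bases, read 840.0, 858.7, 898.8, 1245.9 and 1244.0 in edc3D, against 732.3, 905.5, 942.9, 1111.8 and 1133.0 in WT. It was higher in edc3D in experiments A, E and G and lower in B and C. The means were 1017.5 ± 209 in edc3D and 965 ± 164 in WT (SD, n = 5 each), which is 0.07 ± 0.16 on the log2 scale (SE, limma adjusted p = 0.999). In experiments E and G alone, FCY2 and FUR4 were the 2 members called with the block, with log2 differences of 0.15 and 0.15 (limma adjusted p = 0.00543 and 0.0278). That fit called 35.1% of all tested probe sets. The E and G arrays of a strain are nearly alike, so their spread may be technical. Neither gene passed without the block in E and G alone (limma adjusted p = 0.0605 for FCY2 and 0.0579 for FUR4).

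A further probe set is annotated to FCY2 together with FCY22, a relative of FCY2 in the same family. It could not count as a member. Its signal was 1636.9 to 2719.4 in edc3D, against 1594.3 to 2763.2 in WT, with a log2 difference of -0.06 ± 0.17 (SE, limma adjusted p = 0.999). It was lower in edc3D in 4 of the 5 experiments, E and G included, where the FCY2 probe set was higher. The probe sets thus gave opposite signs in experiments E and G. FCY22 (YER060W-A) alone read 42.5 to 55.3 in edc3D, against 39.9 to 49.1 in WT, and was higher in edc3D in all 5 experiments, as were 10.2% of all probe sets. Its log2 difference was 0.23 ± 0.12 (SE, limma adjusted p = 0.999; 0.186 with the block). FCY21 (YER060W), the other relative, differed by -0.02 ± 0.10 (SE, limma adjusted p = 0.999). Sequence shared between these copies can hybridise to each other's probes, and its part in these values was not tested.

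**Figure D2:**
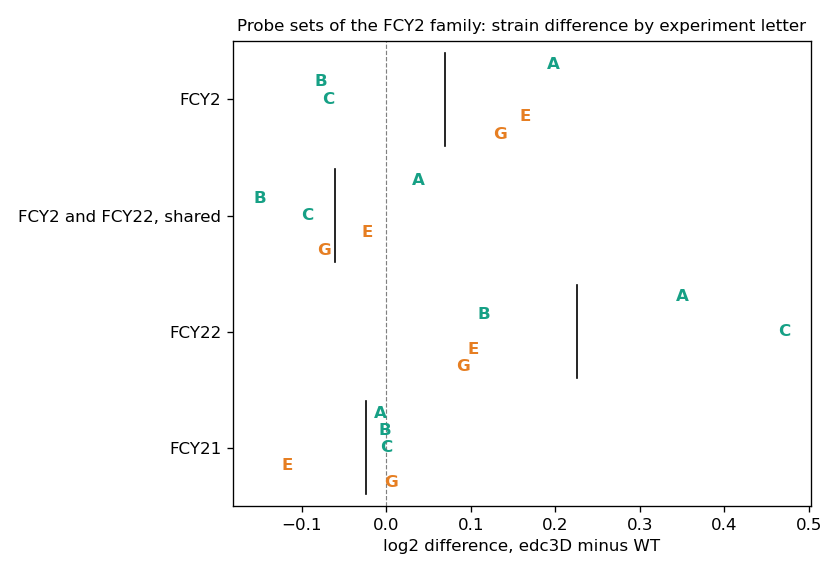
Log2 difference, edc3D minus WT, in each experiment (letters; green for A, B and C, orange for E and G) for the probe sets of FCY2, of FCY2 and FCY22 together, of FCY22 and of FCY21, with a black line at the mean and letters spread vertically for legibility. In E and G the FCY2 probe set lies above 0 and the shared one below 0, and FCY22 lies above 0 in every experiment.

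Of the enzymes that handle the imported bases, none passed either. FUR1 (YHR128W), uracil phosphoribosyltransferase, makes uridine monophosphate from uracil in a single step. It read 1599.7, 1403.4, 1726.3, 2071.5 and 2015.3 in edc3D, against 1449.7, 1504.1, 1556.6, 2064.7 and 1953.0 in WT. The strains were within 0.15 of each other on the log2 scale in every experiment, with edc3D higher in 4 of 5. The means were 1763.2 ± 281 in edc3D and 1705.6 ± 282 in WT (SD, n = 5 each), which is 0.048 ± 0.14 on the log2 scale (SE, limma adjusted p = 0.999).

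FCY1 (YPR062W), cytosine deaminase, converts cytosine to uracil. It read 1517.7, 1705.0, 1709.8, 1416.8 and 1377.1 in edc3D, against 1442.1, 1867.3, 1700.5, 1436.2 and 1466.6 in WT. Its high arrays were not those of E and G but those of experiments B and C, which share a chip lot: all 4 lay above the other 6 arrays, as in 3.6% of all tested probe sets. Chip lot and experiment cannot be told apart for these arrays. The log2 difference between the strains was -0.032 ± 0.10 (SE, limma adjusted p = 0.999), with a 95% interval of the fold from 0.838 to 1.14.

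Uridine is used by URK1 (YNR012W), the uridine and cytidine kinase, and by URH1 (YDR400W), the nucleosidase that splits uridine to uracil and ribose. URK1 read 90.8, 83.7, 81.1, 108.7 and 119.7 in edc3D, against 100.9, 87.0, 92.2, 120.3 and 130.0 in WT. Like FUI1 it was lower in edc3D in all 5 experiments, with log2 differences from -0.185 to -0.056. Its log2 difference was -0.13 ± 0.15 (SE, limma adjusted p = 0.999), and with the block the error was 0.057 (limma adjusted p = 0.215, unadjusted p = 0.049). The difference was -0.131 in A, B and C and -0.133 in E and G.

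URH1 read 212.3, 204.3, 190.5, 186.6 and 195.4 in edc3D, against 246.8, 162.2, 188.7, 175.6 and 208.9 in WT. The edc3D arrays varied little, with a coefficient of variation of 5.28%, against 16.8% in WT. The WT spread came from experiments A and B, where the strains differed in opposite directions, by -0.217 and 0.333 on the log2 scale. The mean difference was 0.024 ± 0.12 (SE, limma adjusted p = 0.999).

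CDD1 (YLR245C), the cytidine deaminase that makes uridine from cytidine, read 44.1, 60.8, 45.6, 50.7 and 57.3 in edc3D, against 45.3, 48.2, 47.9, 46.5 and 52.5 in WT. The means were 51.7 ± 7.25 in edc3D and 48.1 ± 2.73 in WT (SD, n = 5 each), which is 0.095 ± 0.12 on the log2 scale (SE, limma adjusted p = 0.999). Experiment B gave the largest difference, 0.335, and A and C gave small negative ones.

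A test that misses its threshold does not show that levels were the same, so the intervals are given. The 95% intervals of the fold, edc3D over WT, without the block were 0.575 to 1.33 for FUI1, 0.728 to 1.14 for URK1, 0.735 to 1.35 for FUR4 and 0.830 to 1.33 for FCY2. They were 0.842 to 1.27 for FUR1, 0.855 to 1.21 for URH1 and 0.894 to 1.28 for CDD1. With the block they narrowed to 0.790 to 0.969 for FUI1 and 0.827 to 1.20 for FUR4. For URK1 the blocked interval was -0.263 to -0.001 on the log2 scale. Those of FUI1 and URK1 thus left out no change, while those of the other genes included it. None is adjusted for the number of probe sets tested. The intervals with the block take the 5 experiments as independent, and those without it take all 10 arrays as independent.

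The genes of de novo synthesis gave other values on the same arrays; their list was drawn up with earlier results for URA1 and URA4 known. URA1, dihydroorotate dehydrogenase, and URA4, dihydroorotase, fell to folds of 0.486 and 0.675 of WT (limma adjusted p = 3.08e-04 and 0.0428). The fold of URA1 lay outside the 95% intervals of all 8 uptake and salvage genes. That of URA4 lay outside 7 of them, the exception being FUI1, and outside all 8 with the block. These comparisons leave out the error of the URA1 and URA4 folds. The 95% interval of the URA4 fold was 0.591 to 0.77 without the block, which overlaps those of FUI1, URK1 and FUR4. With the block it was 0.622 to 0.732. Without the block, the call of URA4 was lost with experiments E and G averaged as a single replicate and on leaving out any single array. With the block it passed (limma adjusted p = 0.00339), also with E and G averaged and on leaving out each experiment in turn, but not with A, B and C alone. All 11 de novo genes, counted with PPR1 and the enzymes that make uridine and cytidine triphosphate, were lower in edc3D, with a median log2 difference of -0.185 and 2 past the threshold. Of all 6492 tested probe sets 3319 were lower, with a median of -0.004. Those next in p were URA6, URA2, URA7 and URA8, at -0.43, -0.25, -0.22 and -0.19, and none of them passed (limma adjusted p = 0.706 to 0.999). With the block they did not pass either (limma adjusted p = 0.0657, 0.0554, 0.0799 and 0.236). Without the block 4 of the 11 genes, URA1 and URA4 included, had an unadjusted limma p under 0.05, against 4.82% of all tested probe sets. With the block 5 of 11 did, against 23.1%. PPR1 differed by -0.013 ± 0.13 (SE, limma adjusted p = 0.999). Whether the 8 salvage genes differ from the 11 de novo genes as a group was not tested.

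**Figure D3:**
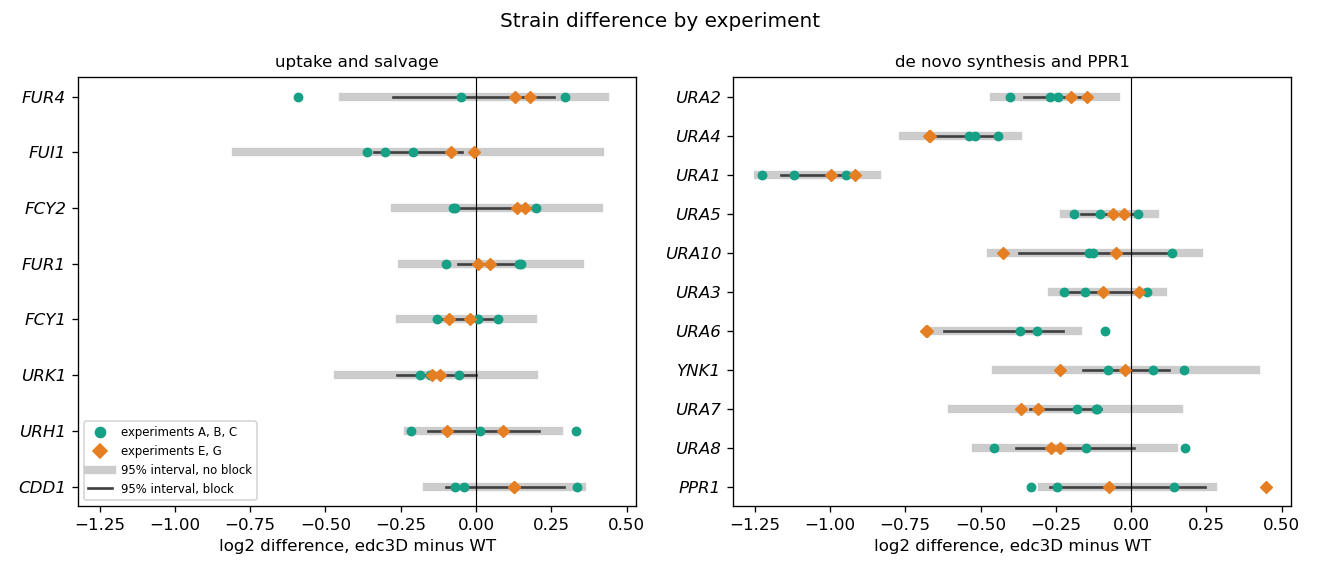
Log2 difference, edc3D minus WT, in each experiment (green circles for A, B and C, orange diamonds for E and G) with limma's 95% intervals without (wide grey bars) and with (thin dark bars) the experiment as a block, for the 8 uptake and salvage genes (left) and the 11 genes of de novo synthesis with PPR1 (right). All points of URA1 and URA4 lie below 0, while among the uptake and salvage genes only FUI1 and URK1 have every point below 0.

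Other transporters and neighbouring routes also gave no call. Of 8 permeases related to FUR4 or FCY2 or carrying nucleosides, 0 passed with or without the block, and the median log2 difference was -0.024. Next to FCY22, the smallest p values belonged to FUN26, a nucleoside transporter of internal membranes, at -0.13 ± 0.11, to THI72 at 0.18 ± 0.21 (its brighter probe set) and to the thiamine permease THI7 at -0.086 ± 0.19 (SE). A dimmer probe set of THI72 was at 0.31 ± 0.26 (SE), with an unadjusted limma p of 0.252 and an adjusted p of 0.999. Of the 4 genes of deoxypyrimidine synthesis 0 passed: CDC21, thymidylate synthase, was at -0.18, the deoxycytidylate deaminase DCD1 at -0.11, DUT1 at -0.035 and CDC8 at 0.008. Of 7 genes of purine salvage 0 passed, with a median of -0.058. There ADO1, adenosine kinase, was at -0.13, AAH1, adenine deaminase, at -0.25, XPT1 at -0.090 and APT1 at -0.058. Without the block 0 genes of these 3 lists had an unadjusted limma p under 0.05, and with it 2 of the permeases, 1 of the deoxypyrimidine genes and 1 of the purine salvage genes did.

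The uptake and salvage genes varied far more between experiments than between strains. The experiment took a median of 91.6% of the log2 sum of squares of the 8 genes and the strain 1.67%, beside 76.2% and 5.69% over all tested probe sets. The experiment has more levels than the strain, which by itself gives it a larger share. The share of the experiment was highest for FUR1 and FUI1, with 93.8% each, and lowest for URH1, with 64.3%. The share of the strain was highest for CDD1, with 10.8%, and lowest for FUR4, with 0.0145%. This split describes 10 arrays, of which those of E and G are nearly alike.

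In 4 of the 8 genes every array of experiments E and G, of either strain, lay above every array of A, B and C, which was so in 9.5% of all tested probe sets. They were FUI1, FUR1, FCY2 and URK1. None of the 8 lay wholly below, against 16.5% of all probe sets. FUI1 read 429.6 to 470.3 in E and G, against 202.4 to 302.5 in A, B and C, a fold of 1.88 between the mean log2 signals. FCY2 read 1111.8 to 1245.9 in E and G, against 732.3 to 942.9 in A, B and C, a fold of 1.37. URK1 read 108.7 to 130.0 in E and G, against 81.1 to 100.9 in A, B and C, a fold of 1.34. FUR1 read 1953.0 to 2071.5 in E and G, against 1403.4 to 1726.3 in A, B and C, a fold of 1.32.

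The remaining 4 genes overlapped between these experiments. FUR4, CDD1 and URH1 differed by 0.23, 0.094 and -0.059 on the log2 scale, E and G minus A, B and C. FCY1 was at -0.21, with E and G at up to 1466.6 and A, B and C at 1442.1 or more. Over all tested probe sets the median absolute difference was 0.23, beside 0.31 over the 8 genes. Of the other lists, 1 of 11 de novo genes lay above and 1 below, URA7 and YNK1, and of the 7 purine salvage genes 2 lay above and 2 below. The 3′ to 5′ ratio of the SRB4 control, a measure of RNA integrity and labelling, was 3.222 to 4.405 in E and G on the log2 scale, against 2.393 to 3.505 in A, B and C. The ratios of SPT15 (2.277 to 2.574 in E and G, against 2.110 to 2.407 in A, B and C) and ACT1 (0.662 to 0.990 in E and G, against 0.604 to 0.915 in A, B and C) overlapped as well. Between the strains the ranges overlapped: 2.393 to 3.576 in edc3D and 2.587 to 4.405 in WT for SRB4. They were 2.181 to 2.408 and 2.110 to 2.574 for SPT15, and 0.604 to 0.914 and 0.691 to 0.990 for ACT1. Within experiments WT had the higher ACT1 ratio in each, the higher SPT15 ratio in all but B and the higher SRB4 ratio in all but A. The part of these ratios in the levels and in the strain differences was not tested. The experiment cannot be told apart from the handling of its arrays.

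**Figure D4:**
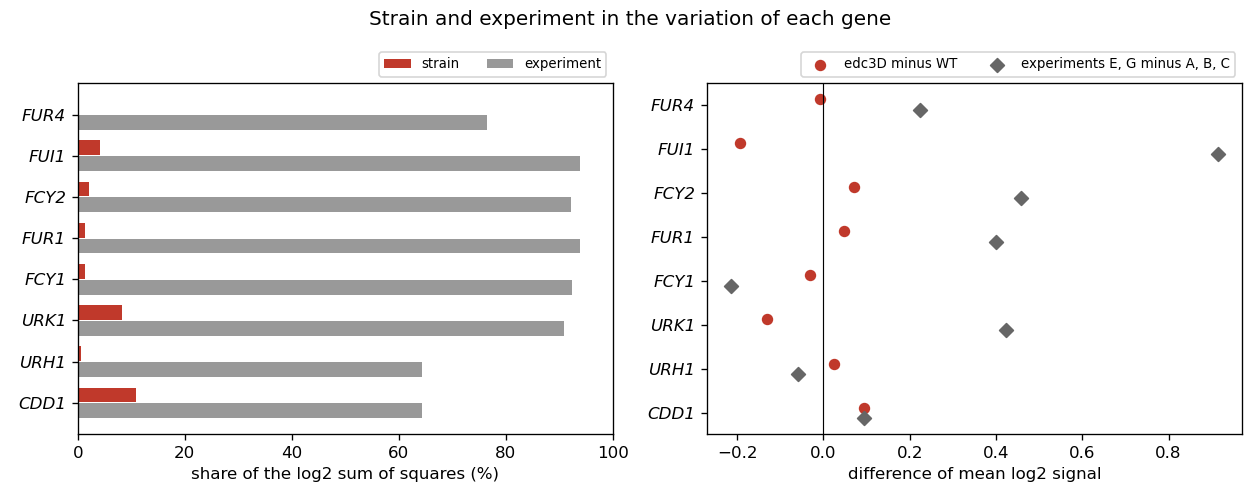
Left, share of each gene's log2 sum of squares over the 10 arrays that lies between the strains (red bars) and between the experiments (grey bars), in percent. Right, difference of mean log2 signal, edc3D minus WT (red circles) and experiments E and G minus A, B and C (grey diamonds); the grey diamond of FUI1, at 0.91, is the farthest from 0.

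The genes whose log2 signal followed a member most closely over the 10 arrays were named by a fixed rule, the 2 of highest Pearson correlation for each. The arrays fall into the sets E, G and A, B, C and share scaling and hybridisation, so the correlation over the 6 arrays of A, B and C is given too. These 6 are among the 10 arrays used for the choice, so a high value there is no separate result for any of the genes named. FUI1 was most like AAH1, which encodes adenine deaminase, and GFD2, both with r = 0.984 over 10 arrays and with 0.899 and 0.882 over the 6. AAH1 read 296.3, 247.4, 330.7, 581.1 and 580.8 in edc3D, against 348.9, 334.8, 366.4, 667.3 and 669.5 in WT. As for FUI1, E and G stood high, and edc3D was lower than WT in all 5 experiments. AAH1 was picked for its correlation with FUI1 on these same arrays, so these shared traits are no separate result. Of all tested probe sets, 9.5% lay wholly above in E and G, and 10.2% were lower in all 5 experiments.

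URK1 was most like FOL1, a gene of folate synthesis (r = 0.979 over 10 arrays, 0.950 over 6), and TEA1 (0.974 and 0.861). FUR1 followed GLY1, threonine aldolase (0.980 and 0.933), and a probe set of the repeated 5S ribosomal RNA gene RDN5-1 (0.974 and 0.823). FCY2 followed YGR109W-B (0.958 and 0.765) and VMA11, a subunit of the vacuolar proton pump (0.956 and 0.821). FCY1 followed RPN1, a proteasome subunit (0.970 and 0.995), and the hexose transporter HXT4 (0.968 and 0.969).

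The closest to FUR4 were ISW2, a chromatin remodelling ATPase (0.960 over 10 arrays and 0.989 over 6), and ARA1, a dehydrogenase (0.931 and 0.971). These rested in part on single arrays: without the 2 arrays farthest from the FUR4 median, r was 0.758 for ISW2 and 0.533 for ARA1. ARA1 read 182.7 on the edc3D array of experiment C, against 765.9 to 1200.9 on the other edc3D arrays, and ISW2 read 53.3 there against 67.7 to 71.5 on the other edc3D arrays. URH1 followed DPB11 (0.940 and 0.986) and SWE1 (0.909 and 0.972), and CDD1 followed BUD32 (0.906 and 0.971) and CLB1 (0.889 and 0.909). Without the 2 farthest arrays, these 4 correlations were between 0.750 and 0.808, while those of FUI1 were 0.984 and 0.983. Leaving out 2 arrays cannot remove all the high E and G arrays of FUI1, so for FUI1 this check does not bear on that split.

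Among the members themselves, FUI1, FUR1, FCY2 and URK1 had pairwise correlations of 0.707 to 0.923 over the 10 arrays. These are the genes singled out above because E and G lay wholly above A, B and C. High correlations over all arrays follow from that choice and are no separate result. Within the 6 arrays of A, B and C the same pairs ranged from -0.653 to 0.455. They were alike over 10 arrays and not within A, B and C. FCY1 ran against URK1 in both sets, with r = -0.805 over 10 arrays and -0.705 over 6. It also ran against FUR4 (-0.59 and -0.516) and URH1 (-0.43 and -0.949). With FUR1, FUI1, FCY2 and CDD1 its r was negative over 10 arrays and positive over 6. The 6 arrays are among the 10, so the sets are not independent.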

How the data were processed

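The samples were 10 yeast RNA samples, 5 of each strain, each on its own array, with biotinylated cRNA made from 6 µg of total RNA. Per the submitters' processing notes, the deposited values are MAS5 signals, an intensity per probe set on a linear scale; its version and settings were not stated. The arrays had already been scaled to a common level (2%-trimmed means within 0.0186%), which was kept. The table holds no detection calls, and the number of arrays limits the precision. Signals from different probe sets were not compared with each other, because probes differ in brightness. Instrument records of 8 arrays gave the chip lot only.

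Signals were converted to log2, with 156 signals of 0 raised to 0.1. The 60 control probe sets were left out, then the dimmest 30% by mean log2 signal (mean signal under 16.8). For the strain comparison, lmFit and eBayes with trend (limma 3.58.1, R 4.3.3) were run over 6492 probe sets, with Benjamini-Hochberg adjustment over all of them, two-sided, without a block. The exact permutation tests used scipy 1.17.1 and are two-sided. The log2 fold change is edc3D minus WT. The strain difference in experiments E and G against A, B and C was fitted with limma on the 5 differences per experiment. The code was tested on simulated data.

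The samples share experiment letters. Deviations from the strain means of paired arrays correlated at 0.650, 0.713, 0.475, 0.652 and 0.692 in A, B, C, E and G, so the letters were taken as pairing and a blocked fit is given where it bears on a result. The members, lists and tests were chosen with earlier results of these data known. All members are named; other lists give called genes and the 4 of smallest p, and the most alike genes are the 2 of highest correlation per member. The annotation pairs 6504 probe sets with 1 gene, and symbols come from RefSeq assembly R64. Positions are left out, since no genome build is named for the array.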

Additional observations from a re-analysis of the deposited data

Results flagged for a closer look

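The FUR4 signal of 147.2 on the edc3D array of experiment C lay far below the other edc3D arrays, the next of which read 297.2. The gap was 0.923 of the range of the 5 arrays. It was 1 of 16 groups of 5 arrays examined for a sample far from the others (8 genes in 2 strains), and chance gives about 1 in 20. Over all tested probe sets, 0.447% had this array as an isolated low value, and 0.216%, 1.17%, 0.139% and 0.077% had the edc3D arrays of experiments A, B, E and G. As an isolated high value, the edc3D arrays of A, B, C, E and G were found in 0.585%, 2.33%, 0.4%, 0.139% and 0.216%. The WT array of experiment C read 221.6, the lowest of its strain. The cause was not tested.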

How the results depend on the processing

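Over 29 alternative settings, 2 of 231 member values passed the threshold, FUR4 and FCY2 in experiments E and G alone with the replicate block (2 members called); 0 members were called in the 28 others. FUI1, URK1 and CDD1 kept their sign in every setting that tested them (CDD1 was not tested with the dimmest 50% left out). FUR4 turned to 0.153 and URH1 to -0.004 in E and G alone, with and without the block. Leaving out an array, or an experiment with the block, gave log2 differences of -0.014 to 0.127 for FUR1, -0.071 to 0.201 for FUR4 (with the block -0.084 to 0.138, and 0.003 without experiment A), -0.07 to 0.03 for FCY1, -0.025 to 0.134 for FCY2 and -0.041 to 0.11 for URH1 (with the block -0.053 to 0.084), all of them spanning 0. It gave -0.364 to -0.062 for FUI1 and -0.212 to -0.054 for URK1, with 0 calls.

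Over all probe sets, 5 were called. The replicate block gave 29, the chip lot as a block 10, and eBayes without trend 3. In the fit by chip lot, arrays with no recorded lot were kept and entered under a label of their own. A, B and C alone gave 2, or 3 with the block, and E and G alone 1263, or 2277 with the block. E and G averaged gave 3, or 8 with the block. Leaving out single arrays gave 3 to 4, and single experiments with the block 7 to 30 (26 without experiment C). Of the other lists 2 genes were called, 1 with eBayes without trend, with A, B and C alone (both fits) or with E and G averaged (2 there with the block), 9 with E and G alone, 13 there with the block, 1 on leaving out each array and 2 on leaving out each experiment with the block. With all arrays, the replicate block changed no call among the members or the other lists. The causes were not tested.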
